A study of Mus musculus and Homo sapiens with 40 samples.

Results

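CEBPA (CCAAT/enhancer-binding protein alpha) is a transcription factor of the basic leucine zipper (bZIP) family that drives the formation of granulocytes and monocytes. Its full-length isoform is p42. The shorter p30 isoform starts at an internal methionine and lacks some of the transactivation elements at the N-terminal end of p42. It keeps the element TE-III and the same DNA-binding bZIP domain. CEBP dimers bind the sequence TTGCNNAA, while a CEBP protein paired with another bZIP factor such as ATF4 binds the mixed sequence TGATGCAA, which joins one arm of a CEBP site to one arm of a cyclic AMP response element.

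The regions described here are the sites that an antibody to CEBPA found in both HPC-7 lines and that an antibody to the estrogen receptor (ER) found in neither. HPC-7, a progenitor line of mouse blood cells grown with stem cell factor, has very little CEBPA of its own. It was transduced with a retrovirus that carries p42 or p30 fused to ERT2, a tamoxifen-responsive piece of the ER, and sorted on GFP, so each line is a sorted population with the transgene under viral control. The study's methods had 4-hydroxytamoxifen, which lets the fusion protein enter the nucleus, added a day before experiments. The 4 lists that define the sites come from untreated cells (no LPS): anti-CEBPA in p42 cells, anti-CEBPA in p30 cells, anti-ER in p42 cells and anti-ER in p30 cells, each from 1 library. Histone acetylation (H3K27ac, a mark of active promoters and enhancers) was measured in both lines without LPS and after 2 h of LPS at 100 ng/mL, and H3K4me1, which marks enhancers, in both lines without LPS. The H3K27ac lists were pooled over 3 libraries each and the H3K4me1 lists over 2.

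The sites were chosen by the measured peak lists. A site was a peak of the p42 anti-CEBPA list on chromosomes 1 to 19 and X that overlapped a p30 anti-CEBPA peak by 1 bp or more and no peak of either anti-ER list. There were 7408 such sites of 47489 in the p42 anti-CEBPA list (15.6%) and of 26237 shared by the anti-CEBPA lists (28.2%). They are called anti-CEBPA-only sites below. The comparison set was the 13366 sites found in all 4 lists. A further 5463 sites were in both anti-CEBPA lists and 1 anti-ER list, 15162 were in the p42 anti-CEBPA list alone, and 2375 sites of the p42 anti-ER list were in both anti-ER lists with no anti-CEBPA peak. Promoter H3K27ac was in place at 12 of 12 hematopoietic identity genes (among them Kit, Ptprc, Gata2 and Runx1) in both lines, and at 1 of 9 genes of liver and fat (Adipoq) in p42 cells and 0 of 9 in p30 cells.

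The sequences under a few of these peaks show the words counted below. Each sequence is 120 bases around the p42 anti-CEBPA summit on the plus strand of GRCm39 (mm39), 5′ to 3′, with matches of TTGCNNAA, TGATGCAA or its CpG-holding form TGACGCAA in capitals on either strand. The first 5 are anti-CEBPA-only sites. The strongest outside genes was also the strongest of all and held no TTGCNNAA in the 200 bp around its summit. Next are the strongest at an annotated promoter, the strongest away from promoters inside H3K27ac of both untreated lines, and the strongest in an intron outside all marks. After them comes the single site at the promoter of a gene from the lists described below. The last is, for contrast, the site of all 4 lists with the highest p42 fold.
Cadm2 site, chr16:67443951-67444070: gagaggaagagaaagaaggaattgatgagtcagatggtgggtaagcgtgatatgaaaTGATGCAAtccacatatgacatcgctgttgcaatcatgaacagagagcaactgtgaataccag
Dok5 site, chr2:170877856-170877975: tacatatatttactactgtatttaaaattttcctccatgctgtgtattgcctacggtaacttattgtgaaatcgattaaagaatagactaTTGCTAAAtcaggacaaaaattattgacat
Tnfrsf1a site, chr6:125319302-125319421: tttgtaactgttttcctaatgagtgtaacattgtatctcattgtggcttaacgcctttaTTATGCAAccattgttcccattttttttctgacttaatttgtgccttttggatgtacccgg
Id4 site, chr13:48272904-48273023: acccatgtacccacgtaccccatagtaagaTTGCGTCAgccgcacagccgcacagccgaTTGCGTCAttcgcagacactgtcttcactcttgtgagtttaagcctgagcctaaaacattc
Tnf site, chr17:35421134-35421253: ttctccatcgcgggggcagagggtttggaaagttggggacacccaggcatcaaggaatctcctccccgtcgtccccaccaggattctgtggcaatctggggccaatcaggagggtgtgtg
Fer site of all 4 lists, chr17:64194116-64194235: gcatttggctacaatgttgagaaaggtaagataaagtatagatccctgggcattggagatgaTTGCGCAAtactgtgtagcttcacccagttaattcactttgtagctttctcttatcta
The Cadm2 site carries TGATGCAA, the Id4 site carries TTGCGTCA (TGACGCAA on the other strand) at 2 places, and the site near Fer carries the palindrome TTGCGCAA. The Dok5 site has TTGCTAAA, a match of the plain CEBP word. The Tnfrsf1a site has TTATGCAA, and the Tnf promoter site has none of these words in its 120 bases.

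Fold enrichment over input, the measure MACS2 gives each peak, was lower at anti-CEBPA-only sites than at sites of all 4 lists, but the rule chose the sites from these same lists, so the values are a description. The p42 anti-CEBPA fold ranged from 1.97 to 25.9, with a median of 7.68 and quartiles of 6.24 and 9.63. Sites of all 4 lists had a median of 14.2 and reached 128.2. In the p30 list the median fold was 6.52 (1.86 to 19.6), against 11.8 at sites of all 4 lists and 7.59 over the whole p30 list. Their median rank by p-value there was 21050 of 31823, in the weaker part of that list. The strongest anti-CEBPA-only site was number 2873 of the p42 list by p-value. Anti-CEBPA-only sites were not the faint end of the p42 list either. With the p42 list cut by fold into 10 groups of equal size, they made up 9.81% of the weakest group, 20.3 to 24.4% of groups 5 to 8, and 0.884% of the strongest. The 15162 sites of p42 alone had a median fold of 6.03. Across the 7408 sites, the p42 and p30 folds had a Spearman rho of 0.35, and across sites of all 4 lists 0.74, as descriptions over peaks that share 2 libraries.

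At the limit of the rule, the 3 nearest sites on either side had p42 folds of 4.58 to 7.42. The anti-CEBPA-only sites closest to an anti-ER peak lay near Paxip1 (chr5:27950190-27950458, 1 bp away, p42 fold 6.72), Anxa3 (chr5:97060097-97060387, 140 bp, 7.42) and Pdxk (chr10:78294251-78294464, 151 bp, 6.72). Just outside the rule were sites near Ifnar2 (chr16:91149227-91149426, overlapping an anti-ER peak by 55 bp, p42 fold 4.58), Ttc6 (chr12:57934208-57934418, 65 bp, 6.49) and Rtf1 (chr2:119547728-119547939, 91 bp, 5.76). Such neighbours were few. An anti-ER peak lay within 1000 bp of 176 sites (2.38%), within 10000 bp of 1518 (20.5%), and the median gap was 37088 bp. A site missing from an anti-ER list fell under that list's threshold, which is not the same as no signal there.

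Anti-CEBPA-only sites were almost bare of active chromatin. A site was counted as marked when its summit lay inside a peak of the mark, and each share is given with a 95% Wilson interval, which covers counting error only. Of the 7408 sites, 184 (2.48%, 2.15 to 2.86%) lay in H3K27ac of untreated p42 cells, against 5120 of 13366 sites of all 4 lists (38.3%, 37.5 to 39.1%) and 18.9% of all p42 anti-CEBPA sites. In untreated p30 cells the shares were 2.19% (1.88 to 2.55%), 34.6% (33.7 to 35.4%) and 16.3%. No test was made, since each list is 1 library or 1 pool, but the intervals were far apart for every mark. After LPS the anti-CEBPA-only share was 2.21% in p42 cells, where 17.7% of all p42 anti-CEBPA sites were marked, and 2.38% in p30 cells, where 16.8% were. H3K4me1 covered 2.43% in p42 cells (10.0% of all p42 anti-CEBPA sites) and 2.90% in p30 cells (13.1%), against 15.6% and 23.7% of sites of all 4 lists. In total 6995 anti-CEBPA-only sites (94.4%, 93.9 to 94.9%) were in none of the 6 mark lists, against 73.1% of all p42 anti-CEBPA sites. H3K4me1 without any H3K27ac list was at 135 (1.82%), against 4.45% of all p42 anti-CEBPA sites. All 6 lists held 37 (0.499%), against 3.51%. Of sites of all 4 lists, 49.9% were in none, and of p42-alone sites 90.7%.

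**Figure D1:**
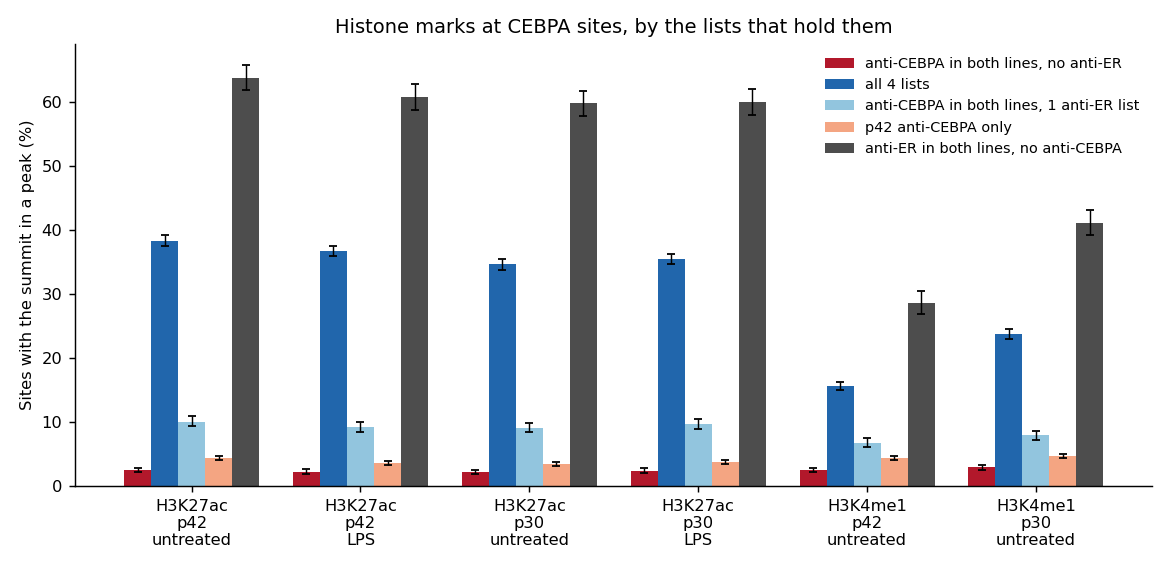
Share of sites (%, y axis) whose summit lies in a peak of each histone mark list (x axis), for 5 sets of sites, with 95% Wilson intervals as error bars. Anti-CEBPA-only sites (red) are at 2.19 to 2.90% for every mark, sites of all 4 lists (dark blue) at 15.6 to 38.3%, and sites of both anti-ER lists without anti-CEBPA (grey) at 28.5 to 63.7%.

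The order of the sets was the same for each mark. The 2375 sites of both anti-ER lists without anti-CEBPA were the most often in H3K27ac of untreated p42 cells (63.7%, 61.8 to 65.7%), followed by sites of all 4 lists, then by sites with 1 anti-ER list (10.0%, 9.28 to 10.9%) and the p42 anti-CEBPA list alone (4.34%, 4.03 to 4.68%). Anti-CEBPA-only sites came last, below the p42-alone sites, whose median p42 fold was lower (6.03 against 7.68). The 2709 anti-CEBPA-only sites with a fold up to 6.72 had a share of 4.25% (3.55 to 5.07%), close to that of p42-alone sites. In H3K27ac of the untreated lines, 125 anti-CEBPA-only sites were marked in both, 59 in p42 cells alone and 37 in p30 cells alone.

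The gap in H3K27ac was present at every strength of the anti-CEBPA peak. The 26237 sites shared by the anti-CEBPA lists were cut by p42 fold into 5 strength classes of equal size. In the weakest class (fold up to 6.72), 4.25% of anti-CEBPA-only sites were in H3K27ac of untreated p42 cells (115 of 2709), against 64.8% of sites of all 4 lists (950 of 1465). Class 3 had 1.18% against 46.7%, and class 4 had 1 of 712 against 1077 of 3197 (0.140% and 33.7%). In the strongest class it was 0 of 64, which allows up to 5.66%, against 22.4%. In both sets the mark was less frequent where the peak was stronger. Base composition differed as well: median GC content of the 200 bp around the summit was 38.0% at anti-CEBPA-only sites and 43.5% at sites of all 4 lists. It was 37.0% at p42-alone sites and 38.5% at sites with 1 anti-ER list. Within 5 classes of GC content, an analysis added after the data were seen, the shares in H3K27ac of p42 cells ran from 0.453% against 5.67% in the lowest class to 10.6% against 64.5% in the highest. The difference kept its direction in all 5 classes and was smallest in the lowest, at -5.22 percentage points.

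**Figure D2:**
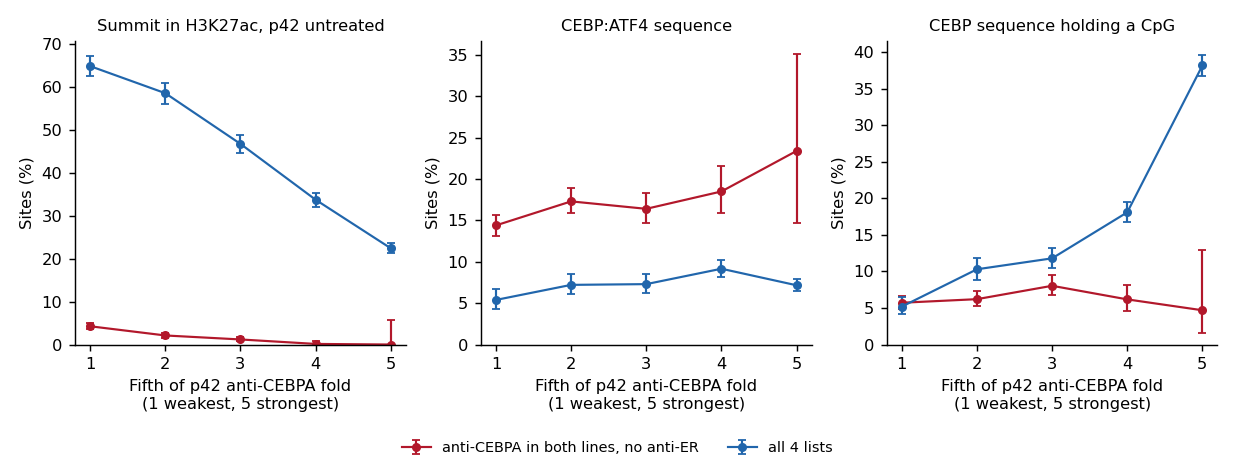
Share of sites (%, y axes) in each of 5 classes of p42 anti-CEBPA fold (x axes, 1 weakest) for anti-CEBPA-only sites (red) and sites of all 4 lists (blue), with 95% Wilson intervals. H3K27ac is low in red and falls from 64.8 to 22.4% in blue, TGATGCAA (CEBP:ATF4) is higher in red in every class, and CEBP sequences with a CpG climb to 38.2% in blue only, the red points staying at 4.69 to 8.04%.

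Most sites lay far from the start of a protein-coding gene, in introns or between genes. Promoters (1000 bp upstream to 100 bp downstream of any GENCODE M39 transcript start) held 376 sites (5.08%, 4.60 to 5.60%), exons 360 (4.86%), introns 3571 (48.2%) and intergenic DNA 3101 (41.9%). Sites of all 4 lists were at promoters in 14.1% (13.5 to 14.7%) and intergenic in 28.1%, and 8.74% of all p42 anti-CEBPA sites were at promoters. The p42-alone sites were placed much like the anti-CEBPA-only sites, with 5.03% (4.70 to 5.39%) at promoters and 41.3% (40.5 to 42.1%) intergenic. Only 159 anti-CEBPA-only sites (2.15%) were at the promoter of a protein-coding gene. The median distance to the nearest protein-coding start was 67480 bp (interval of the median 62979 to 71391), against 18284 bp (17419 to 19050) for sites of all 4 lists and 57550 bp (55053 to 60321) for p42-alone sites. More than 100000 bp separated 3155 sites (42.6%) from any such start, and 925 (12.5%, and also 12.5% of p42-alone sites) were more than 500000 bp away. Within 500000 bp on either side of the summit there was a median of 4 protein-coding genes, against 8 around sites of all 4 lists and 4 around p42-alone sites. The nearest H3K27ac peak of untreated p42 cells was at a median of 149320 bp, compared with 43 bp for sites of all 4 lists and 107862 bp for p42-alone sites.

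**Figure D3:**
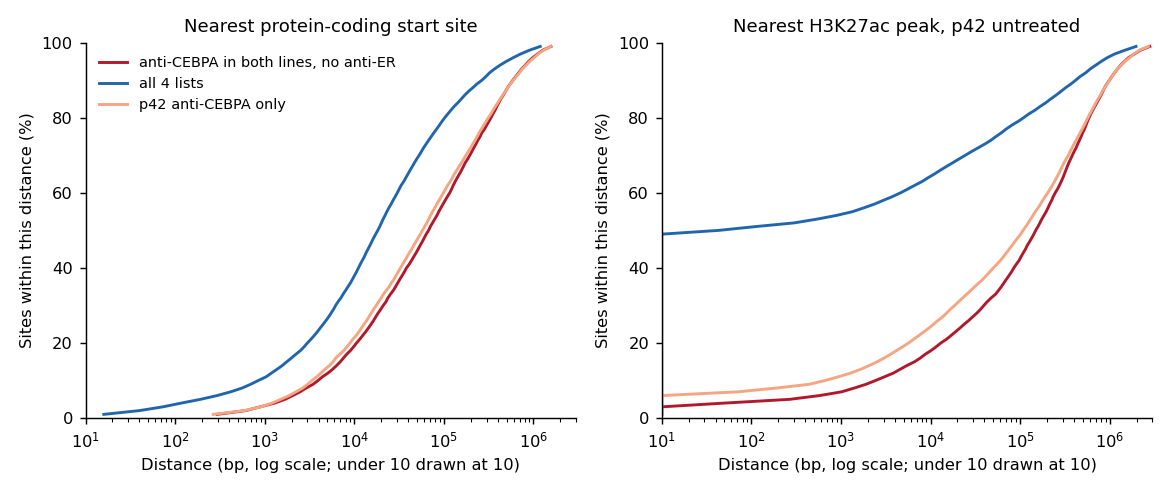
Share of sites (%, y axes) within a given distance (bp, log x axes) of the nearest protein-coding start (left) and of the nearest H3K27ac peak of untreated p42 cells (right). The anti-CEBPA-only curve (red) has its midpoint at 67480 bp on the left and 149320 bp on the right, and sites of all 4 lists (blue) at 18284 and 43 bp.

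Anti-CEBPA-only sites at promoters were mostly unmarked. Of the 159 sites at protein-coding promoters, 26 (16.4%, 11.4 to 22.9%) had their summit in H3K27ac of untreated p42 cells, while 819 of 1095 such sites of all 4 lists did (74.8%, 72.1 to 77.3%). Some of these genes had the mark at another part of the promoter or at another start site: of 158 genes with an anti-CEBPA-only site at a promoter, 73 (46.2%, 38.6 to 54.0%) had H3K27ac overlapping a promoter in p42 cells, against 53.0% of all 21584 protein-coding genes and 93.0% of 1143 genes with a site of all 4 lists. The 125 sites in H3K27ac of both untreated lines differed from the unmarked ones. Promoters held 28 of them (22.4%, 16.0 to 30.5%), against 4.55% of sites in no mark list. Their median GC content was 45.5% against 38.0%, and their median p42 fold was 6.03 against 7.68. Introns had the mark more often than intergenic DNA, in 3.14% and 0.645% of sites for p42 cells.

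The strongest sites of each class lay at various distances from the starts of coding genes, and some were inside a gene. The intergenic site upstream of Cadm2, a synaptic cell adhesion molecule (chr16:67443832-67444197), had a p42 fold of 25.9 and a p30 fold of 7.48 and lay 26195 bp from the Cadm2 start and 28585 bp from an anti-ER peak. The next intergenic sites were near Tle4, a corepressor of the Groucho family (chr19:15009584-15009922, folds 24.5 and 15.6, 434175 bp from its start), and Mphosph6 (chr8:118768009-118768347, folds 23.5 and 13.5, 239427 bp). All 3 had no mark. The strongest intronic sites without marks had as nearest coding genes Id4, an inhibitor of basic helix-loop-helix factors (chr13:48272783-48273130, p42 fold 21.8, 141594 bp away), Htra1, a secreted serine protease (chr7:130556892-130557265, 21.6, 11862 bp), and Itgbl1 (chr14:124023661-124024010, 21.1, 124995 bp). The Htra1 site lies in an array of short tandem repeats.

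The strongest promoter sites belonged to starts of non-coding transcripts. They had the coding genes Dok5 (chr2:170877751-170878105, p42 fold 24.0, 304108 bp away), Tcf12 (chr9:71856016-71856323, 21.8, 26190 bp) and Rragc (chr4:124014718-124015052, 20.2, 199818 bp) as nearest neighbours, and none was in a mark list. The strongest distal sites in H3K27ac of both untreated lines were weaker. The first lay 6204 bp upstream of Tnfrsf1a, the type 1 receptor of tumor necrosis factor (chr6:125319211-125319510), with a p42 fold of 12 and a p30 fold of 5.48, and its summit was in all 6 mark lists. The others were near Clasp1 (chr1:118450016-118450315, 11.8 and 8.5) and Cfap61 (chr2:145940250-145940545, 11.1 and 6.05). Anti-ER peaks lay 1690, 2762 and 321 bp from these 3 marked sites.

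CEBP sequences were common at the sites and were centered on the summit. In the 200 bp around the summit, 3704 sites (50.0%, 48.9 to 51.1%) held TTGCNNAA on either strand, against 61.0% (60.1 to 61.8%) of sites of all 4 lists, 43.8% of p42-alone sites and 50.6% of all p42 anti-CEBPA sites. In windows of the same length 5 kb to either side, 10.1% held it. Where the sequence occurred, its closest copy was at a median of 12 bp from the summit at anti-CEBPA-only sites and 8 bp at sites of all 4 lists. The difference from sites of all 4 lists depended on strength: in the weakest class of p42 fold anti-CEBPA-only sites held TTGCNNAA more often (47.9% against 41.2%), in class 2 the shares were 50.1% and 49.1%, and in the strongest 59.4% and 74.2%. A rearranged control word, TGTCNNAA, was found at 15.5% of anti-CEBPA-only sites and 16.6% of sites of all 4 lists, with 11.1% and 11.4% in their flanks.

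**Figure D4:**
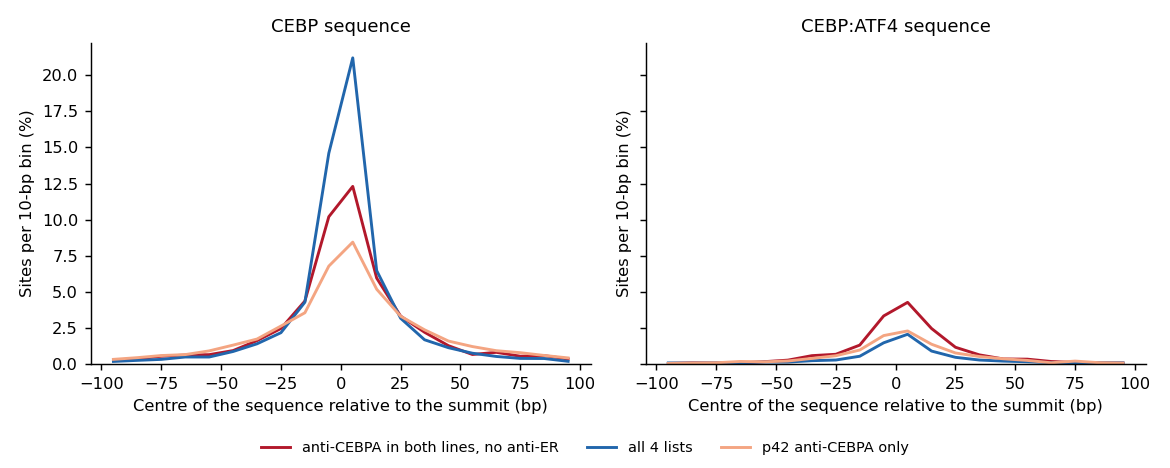
Position of the copy nearest the summit for TTGCNNAA (CEBP, left) and TGATGCAA (CEBP:ATF4, right), as the share of sites (%, y axis) per 10 bp bin of distance from the summit (x axis, bp). Both sequences peak at the summit in all 3 sets. The left peak is highest for sites of all 4 lists (blue) and the right peak for anti-CEBPA-only sites (red).

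The mixed CEBP:ATF4 word TGATGCAA went the other way. It was present at 1202 anti-CEBPA-only sites (16.2%, 15.4 to 17.1%), at 999 sites of all 4 lists (7.47%, 7.04 to 7.93%), at 10.6% (10.2 to 11.1%) of p42-alone sites, at 11.1% (10.3 to 11.9%) of sites with 1 anti-ER list, and at 3.28% (2.64 to 4.08%) of sites of both anti-ER lists without anti-CEBPA. Among all p42 anti-CEBPA sites it was at 10.1%, and in the flanks of anti-CEBPA-only sites at 0.688%. In every class of p42 fold the share was higher at anti-CEBPA-only sites, from 14.4% against 5.39% in the weakest to 23.4% (15 of 64 sites) against 7.16% in the strongest. Within the GC classes it stayed between 14.2 and 17.4% for anti-CEBPA-only sites and between 6.96 and 7.98% for sites of all 4 lists. TGATGCAA and TTGCNNAA cannot match at the same letters, since TGATGCAA reads TTGCATCA on the other strand, and 63.7% of anti-CEBPA-only sites and 66.7% of sites of all 4 lists held at least 1 of them. Its share hardly moved with place or mark, at 14.4% in promoters, 15.8% in introns, 16.9% in intergenic DNA and 13.6% (8.67 to 20.7%) of the 125 sites in H3K27ac of both untreated lines.

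The versions of the CEBP word that hold a CpG were scarcer at anti-CEBPA-only sites than at sites of all 4 lists, and scarcer again at p42-alone sites. TTGCNNAA with a CpG (TTGCGCAA, TTACGCAA, TTGCGAAA, TTCCGCAA or TTCGGCAA, on either strand) was counted in the 200 bp around the summit. It was at 475 anti-CEBPA-only sites (6.41%, 5.88 to 6.99%), 2932 sites of all 4 lists (21.9%, 21.2 to 22.6%), 529 p42-alone sites (3.49%, 3.21 to 3.79%) and 9.99% of all p42 anti-CEBPA sites. Among sites with any TTGCNNAA, 12.8%, 36.0% and 7.97% of these 3 sets had a CpG form. The single words, counted in the central 100 bp and looked at after the values were seen, showed which ones. TTGCACAA, which has no CpG, was the most frequent word and had the same share in both sets, at 19.8% (19.0 to 20.8%) of anti-CEBPA-only sites and 19.8% (19.2 to 20.5%) of sites of all 4 lists. The palindrome TTGCGCAA was at 1.01% against 5.68%, TTACGCAA at 2.05% against 8.80%, and TTGCGAAA at 2.65% against 6.84%.

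Of the words with TpG in place of the CpG, 3 had higher shares at anti-CEBPA-only sites than at sites of all 4 lists, while TTGTGCAA, which is TTGCACAA on the other strand, had the same share in both, as above. TTATGCAA, which differs from TTACGCAA by 1 letter, was at 8.06% (7.46 to 8.70%) of anti-CEBPA-only sites and 3.53% (3.23 to 3.86%) of sites of all 4 lists. TTGTGAAA was at 10.3% against 5.58%. The p42-alone sites held these words as often or more often, at 8.09% (7.66 to 8.53%) for TTATGCAA and 11.6% (11.1 to 12.2%) for TTGTGAAA. TGATGCAA was at 14.8% and 6.43% in this window, and at 9.19% of p42-alone sites, while its CpG form TGACGCAA was at 2.38% (2.05 to 2.75%) and 2.81% (2.54 to 3.10%), whose intervals overlap. The shortfall of CpG words moved with strength. In the weakest class of p42 fold the shares were 5.72% and 5.19%, in class 4 6.18% and 18.1%, and in the strongest 4.69% and 38.2%, so the difference was not detectable among the weakest sites. CpG dinucleotides of any context averaged 1.58 in 200 bp at anti-CEBPA-only sites and 1.5 in their flanks, against 2.73 and 1.95 for sites of all 4 lists.

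Sequences of other hematopoietic factors occurred at anti-CEBPA-only sites at about the level of the flanks. The PU.1 word GAGGAAGT was at 0.891% (0.701 to 1.13%), with 1.13% in the flanks, against 4.02% of sites of all 4 lists and 7.58% of sites of both anti-ER lists without anti-CEBPA. The RUNX word TGTGGTTT was at 1.62%, with 1.85% in the flanks, against 3.03% and 5.98%. AP-1 (TGANTCA) was at 6.37% and 5.94% in the flanks, against 8.16% and 10.7%, and the word AGATAAG of GATA factors was at 2.96%, 2.86% and 3.12% in the 3 sets. The p42-alone sites were much like the anti-CEBPA-only sites, with PU.1 at 1.18%, RUNX at 1.62%, AP-1 at 6.55% and GATA at 2.65%. The ETS word CCGGAAGT was at 0.0540% of anti-CEBPA-only sites and 0.374% of sites of all 4 lists, the CTCF words AGGTGGCAG and AGGGGGCGC at 0.121% and 0.456%, and the NF-κB word GGANTTTCC at 0.810% and 0.756%. An estrogen response element (GGTCA and TGACC 3 bases apart) was at 1 anti-CEBPA-only site and at 4 sites of all 4 lists. All words were searched on both strands.

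**Figure D5:**
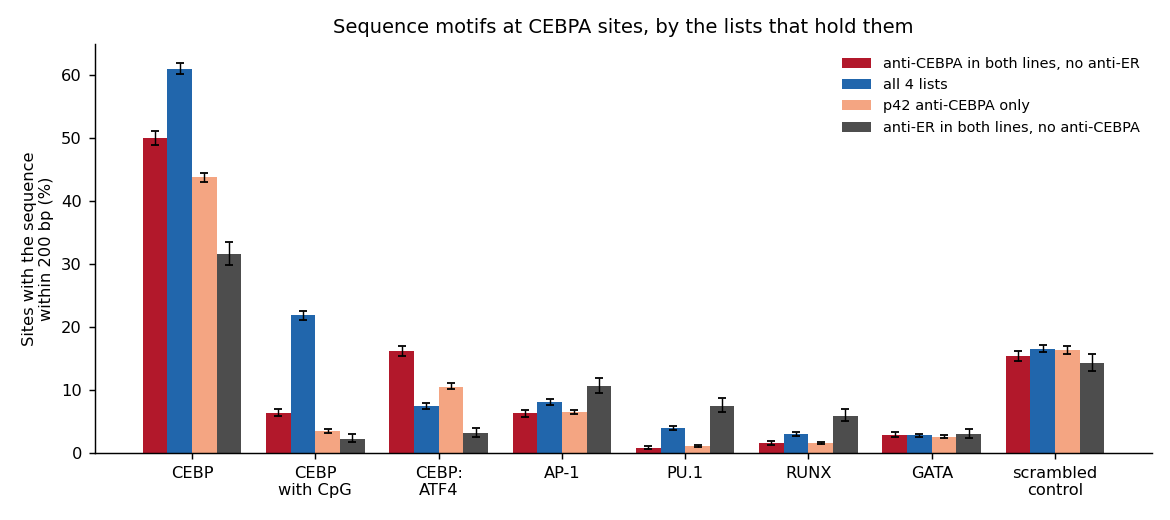
Share of sites (%, y axis) with each sequence (x axis) in the 200 bp around the summit, for 4 sets, with 95% Wilson intervals. Anti-CEBPA-only sites (red) have the highest CEBP:ATF4 bar, at 16.2%, and PU.1 and RUNX bars at 0.891 and 1.62%, the level of their flanks.

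The genes nearest to the largest numbers of anti-CEBPA-only sites had 15 to 22 sites each. Ptprd, a receptor phosphatase of synapses (chr4:75859475-78130198), was nearest to 22 sites, followed by Brinp3 (chr1:146370498-146780462) and the cadherin Cdh18 (chr15:22549108-23474504) with 19 each. Cdh8, another cadherin, and Pla2g4a, the cytosolic phospholipase that frees arachidonic acid, had 16 each. Those with 15 each included the adhesion genes Cntnap2 and Pcdh9, the neuregulin receptor Erbb4, the guidance receptor Robo2, and Csmd3 and Dpp10. Of these 11 genes, 10 had no H3K27ac at any promoter in either untreated line, Pla2g4a being the exception. They were nearest to many other CEBPA sites too: 22 of 70 p42 anti-CEBPA sites nearest to Ptprd (31.4%) and 15 of 72 nearest to Robo2 (20.8%) were anti-CEBPA-only, against 15.6% over the genome. The genes were chosen by their number of anti-CEBPA-only sites, which favors shares above 15.6%. Nothing is read from the difference.

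Over all sites, 3922 protein-coding genes (18.2%) were nearest to at least 1 anti-CEBPA-only site, and 6972 (32.3%) to a site of all 4 lists, out of 56.9% that were nearest to any p42 anti-CEBPA site. Of the 3922, 2251 (57.4%) were also nearest to a site of all 4 lists, which is 32.3% of the 6972. H3K27ac at a promoter was found in untreated p42 cells at 1688 (43.0%, 41.5 to 44.6%) of the former and at 4561 (65.4%, 64.3 to 66.5%) of the latter, and in untreated p30 cells at 42.6% and 64.7%. Over all 21584 protein-coding genes the share was 53.0% in p42 cells and 52.8% in p30 cells. The nearest gene had a median length of 81908 bp per anti-CEBPA-only site, 59297 bp per site of all 4 lists, and the median of all protein-coding genes was 19154 bp. Olfactory receptor genes were nearest to an anti-CEBPA-only site in 99 of 1193 (8.30%) and vomeronasal receptor genes in 61 of 352 (17.3%), beside 7.71% and 16.8% for sites of all 4 lists. Per chromosome, anti-CEBPA-only sites were 12.1% (chromosome 17) to 17.8% (chromosome 18) of p42 anti-CEBPA sites on the autosomes and 25% (22.4 to 27.8%) of the 975 on X. By length, X had the fewest, at 1.44 per Mb against 2.34 (chromosome 11) to 3.59 (chromosome 1) on the autosomes. Sites of all 4 lists were at 1.12 per Mb on X against 4.24 (chromosome 18) to 8.60 (chromosome 17).

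Few genes of any kind had an anti-CEBPA-only site at the promoter. Among the 10 gene lists examined, which were drawn up with earlier results of these data known, Tnf was the single gene with one, in a background of 10.1% of protein-coding genes with any p42 anti-CEBPA site at a promoter and 0.732% with an anti-CEBPA-only site. The site was 211 bp upstream of the start of Tnf, the gene of tumor necrosis factor (chr17:35421116-35421325), with a p42 fold of 5.73 and a p30 fold of 8.49. It lay in all 4 H3K27ac lists and in H3K4me1 of p42 cells, 960 bp from an anti-ER peak.

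Inflammatory genes had 6 of 27 members nearest to at least 1 anti-CEBPA-only site (22.2%), close to the 18.2% of all protein-coding genes, and 18 of 27 nearest to a site of all 4 lists (66.7%, against 32.3%). Tlr4, the receptor of LPS, was nearest to 6 sites, all intergenic, without a mark and 112678 to 557582 bp downstream of its start. The strongest of them had a p42 fold of 14.4 and a p30 fold of 11.6. The others were Tnf, the chemokine gene Cxcl1, Il1a (interleukin-1 alpha), Ptgs2 (cyclooxygenase-2) and Tnfaip3 (an inhibitor of NF-κB), with 1 site each. The Il1a site (chr2:129156846-129157161), at -4898 bp from its start, and the Tnfaip3 site (chr10:18841537-18841866) were each in 3 mark lists.

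The shares of all protein-coding genes, 18.2% nearest to an anti-CEBPA-only site and 32.3% to a site of all 4 lists, are the background of the next counts too. By that measure the counts of anti-CEBPA-only sites are near the background, and nothing is read from them about the lists. Transcription factors of the stem and progenitor program were nearest to sites of all 4 lists in 13 of 15 cases and to anti-CEBPA-only sites in 2 of 15. These were Mecom with 2 sites, and Meis1 with 2 against 7 of all 4 lists. Among myeloid transcription factors it was 4 of 15 (Klf4, Maf and Myc with 3 sites each, Egr1 with 1) against 12 of 15 for sites of all 4 lists. The strongest of these sites lay at -222144 bp from the start of Maf, with folds of 17.3 in p42 and 13.0 in p30 cells. The Myc sites lay 154030 to 586688 bp downstream of its start, and the Klf4 sites at -584235, -549232 and 4079 bp. Of the hematopoietic identity markers, 2 of 12 were nearest to anti-CEBPA-only sites (Ptprc with 3, Meis1) and 11 of 12 to sites of all 4 lists.

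The background of 18.2% and 32.3% of all protein-coding genes holds for the counts here as well. Granule and effector genes of myeloid cells had 2 of 16 (Cybb, a subunit of the phagocyte oxidase, and S100a8) against 7 of 16. Growth factor and cytokine receptors had 2 of 14 (Csf3r, the receptor of granulocyte colony-stimulating factor, and Tnfrsf1a) against 11 of 14. The Csf3r site lay at -228099 bp from its start. AP-1 family genes had 2 of 13 against 10 of 13, with Batf and Jun. The Jun site lay 2060 bp downstream of the start with folds of 6.03 and 4.25, and was in 4 mark lists. Stress response genes had 4 of 14 against 12 of 14: Dnajb9 with 5 sites, Trib1 with 2, and Asns and Gadd45a with 1 each. The Dnajb9 sites lay 12982 to 1237038 bp downstream of its start, and the Trib1 sites 87673 and 119657 bp downstream. The Asns site was at -9596 bp and the Gadd45a site at -76961 bp.

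Liver and fat cell genes, which include known targets of CEBP factors in those tissues, were the single list of the 10 with more members nearest to anti-CEBPA-only sites (4 of 15) than to sites of all 4 lists (3 of 15), a difference of 1 gene. Of all protein-coding genes, 18.2% were nearest to an anti-CEBPA-only site and 32.3% to a site of all 4 lists. Nothing is read from these counts about the list. Cps1, the first enzyme of the urea cycle, had 4 sites, 74272 to 271747 bp from its start, and Alb, the albumin gene, had 2. The site 4215 bp inside Alb (chr5:90614594-90614885) had folds of 10.6 and 8.01. Pck1 and the fat cell regulator Pparg had 1 each. None of these 8 sites was in a mark list, which was so for 94.4% of all anti-CEBPA-only sites.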

How the data were processed

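Chromatin of HPC-7 cells carrying p42-ERT2 or p30-ERT2 was immunoprecipitated and sequenced. The authors trimmed reads with Trim Galore 0.6.6, aligned them to mm39 with Bowtie2, removed duplicates with Picard and called peaks with MACS2 against input. The deposited lists hold, per peak, a fold ratio over input, −log10 of the p-value and −log10 of the q-value. The anti-ER and mark lists are named as called without a fragment model. The study gives the default settings of MACS2 for its peak calls in general, and the anti-CEBPA lists carry no setting in their names. It gives the sequencing depth as a range over all samples. The lists hold no read counts, so the depth of each library was not used here. Each anti-CEBPA and anti-ER list is 1 library, and mark lists pool replicates, so no p-values were computed.

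Overlaps, GENCODE M39 positions and GRCm39 sequence were computed in Python 3.11.15 with pandas 2.3.3 and pysam 0.24.0, and the functions were tested on simulated intervals. Words were counted in 200 bp around the summit, single words in the central 100 bp, and flanks 5000 bp away. The nearest gene is the protein-coding gene whose transcript start is closest to the summit. Shares carry Wilson 95% intervals. The 5 classes of p42 fold and of GC content were cut by rank over sites of both anti-CEBPA lists.

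The sites, the gene lists and the named items were chosen with earlier results of these data known. Named sites were, outside chromosome 18, the 3 of highest p42 fold at promoters, at distal sites in H3K27ac of both untreated lines, in unmarked introns, in unmarked intergenic DNA and without TTGCNNAA, and the 3 on each side of the anti-ER limit. Named genes were those nearest to the most sites, those of each list with the most sites nearest, and listed genes with a site at the promoter. Some genes that met this rule, and the list of erythroid and mast cell genes, are not reported here. Alternatives varied the peak threshold, the overlap, the distance to anti-ER, list size, the promoter, the mark rule and the word window. The ATF4 list of human KO-52 cells was not used here.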

Additional observations from a re-analysis of the deposited data

Results flagged for a closer look

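The share of anti-CEBPA-only sites in H3K27ac moved in opposite directions with LPS in the 2 lines. It changed by -0.270 percentage points in p42 cells, where 58 sites were in the untreated list alone and 38 in the LPS list alone, and by 0.189 points in p30 cells, where 45 were in the untreated list alone and 59 in the LPS list alone. Each list is 1 pool, so the difference was not tested, and the intervals of the shares before and after LPS overlap in both lines. The sizes of the lists moved the same way, from 129345 to 107114 peaks in p42 cells and from 139190 to 142385 in p30 cells. Sites of all 4 lists also followed that order, with 612 in the untreated list alone and 396 in the LPS list alone in p42 cells, and 436 and 546 in p30 cells. Their part in the result was not tested.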

How the results depend on the processing

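No paired analysis was possible because the lists are single libraries or pools that carry no replicates, so leaving out a replicate could not be run either. With q under 1e-05 in both anti-CEBPA lists, shares in H3K27ac of untreated p42 and p30 cells and in H3K4me1 of p42 and p30 cells were 2.05, 1.87, 2.03 and 2.31%. With no anti-ER peak within 1000 bp they were 1.98, 1.73, 2.07 and 2.53%. With the same number of best-ranked peaks in each of the 4 lists, 3569 sites were left, with shares of 1.54, 1.29, 1.54 and 1.74% and TTGCNNAA at 53.3%. Any overlap with a mark peak gave 3.66, 3.28, 3.54 and 4.00%, a mark peak within 1000 bp of the summit 6.59, 6.61, 6.43 and 7.56%, and mark peaks with q under 1e-05 gave 2.13, 1.81, 1.75 and 2.21%. Promoters held 15.8% within 2500 bp of a start and 2.15% at protein-coding starts. TTGCNNAA was at 43.9% in 100 bp and 55.8% in 400 bp. The median distance to a protein-coding start stayed between 67343 and 70616 bp. Differences from sites of all 4 lists, in percentage points, follow for the 5 classes of p42 fold, weakest first, and then of GC content, lowest first, which was added after the data were seen. Promoters gave -15.9, -16.7, -10.8, -8.08 and -1.95, then -0.696, -2.44, -4.48, -5.96 and -15.0. H3K27ac in p42 cells gave -60.6, -56.4, -45.6, -33.5 and -22.4, then -5.22, -15.9, -28.1, -39.5 and -53.9, and in p30 cells -59.5, -53.5, -42.6, -28.7 and -18.1, then -4.49, -12.5, -24.0, -35.0 and -51.8. H3K4me1 in p42 cells gave -20.8, -20.5, -15.9, -14.1 and -9.97, then -4.83, -13.5, -13.1, -14.9 and -11.9, and in p30 cells -33.0, -31.9, -27.3, -22.1 and -14.4, then -6.20, -14.5, -19.6, -24.8 and -23.4. TTGCNNAA gave 6.72 and 0.994, a change of sign, and then -3.49, -6.47 and -14.9, with -18.4, -16.8, -11.8, -8.49 and -4.58 for GC. Its CpG forms gave 0.534, a change of sign, and then -4.04, -3.75, -11.9 and -33.5, with -20.8, -20.4, -18.3, -12.2 and -4.04 for GC. The intervals of 0.994 (-2.13 to 4.11) and of 0.534 (-0.964 to 1.92) cover both signs, and that of 6.72 (3.56 to 9.84) does not. TGATGCAA gave 8.97, 10.1, 9.14, 9.37 and 16.3, then 8.12, 9.66, 8.83, 8.25 and 6.82. The cause of these shifts was not tested. The lists do not hold the read depth of each library, so how many sites an anti-ER library of another depth would take out was not tested.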

Other observations

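The 3 strongest anti-CEBPA-only sites without TTGCNNAA, outside chromosome 18, each held a mixed CEBP word. The site near Cadm2 held TGATGCAA and the site near Id4 held TTGCGTCA. The site 26190 bp from Tcf12, also named above among the promoter sites, held TTGCATCA, which is TGATGCAA on the other strand. Most anti-CEBPA-only sites without TTGCNNAA held no TGATGCAA. Of the 7408 sites, 3704 held TTGCNNAA and 4717 held at least 1 of these words. The tandem array at Htra1 repeats TTATGTCA, a word found in the central 100 bp of 0.891% of anti-CEBPA-only sites, 0.584% of sites of all 4 lists and 0.378% of the flanks.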
